A study of Mus musculus with 7 samples.

Results

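Ccl2, Ccl7, Ccl8 and Ccl12 are the mouse CC chemokines of the monocyte chemoattractant group, and they were described here across the leukocytes of the mouse heart before and after myocardial infarction. They were taken by gene symbol, by a rule that used none of their values, though earlier results of these data were known when they were chosen. All 4 were found in each of the 7 matrices, among 27998 genes in the CD45+ libraries and 31053 in the others. Libraries of CD45+ heart leukocytes came from male C57BL6/J mice without infarct (steady state, 5 mice) and from mice whose left coronary artery had been ligated for good 1, 3, 5 or 7 days earlier (5, 5, 5 and 3 mice). A second experiment held CD11b+ heart cells of days 1, 3 and 5 (5, 5 and 3 mice of the same strain and sex), marked with hashtag antibodies and run as 1 pool. In both, cells labelled by an intravenous CD45.2 antibody before death were left out, so that blood cells were set aside, and the heart was digested with collagenases and hyaluronidase at 37 °C. The CD45+ sort came after a step that lowered neutrophil numbers. Another matrix pooled CD11b+ blood and heart cells of C57BL6/J mice aged 8 to 10 weeks (no surgery, sham surgery, or infarct) under 7 hashtags that could not be paired with conditions here. Mice of a day were pooled, so each day gave 1 sample per experiment, and the age of the mice in the first 2 experiments is not given in the sources used here.

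These chemokines are small secreted proteins that attract leukocytes bearing G protein coupled receptors. Ccl2, Ccl7 and Ccl12 act on CCR2, the receptor that brings Ly6C-high monocytes out of the bone marrow and into injured tissue, while mouse Ccl8 is known as a ligand of CCR8. In the infarcted heart, CCR2-dependent monocytes give rise to most of the macrophages that clear dead muscle and later take part in scar formation.

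The 4 genes lie in 1 cluster on the plus strand of mouse chromosome 11 (GRCm38, GENCODE M21), within 81.2 kb. Ccl2 (ENSMUSG00000035385) spans 82035571 to 82037453 and Ccl7 (ENSMUSG00000035373) 82045712 to 82047525. Ccl12 (ENSMUSG00000035352) spans 82101845 to 82103400 and Ccl8 (ENSMUSG00000009185) 82115185 to 82116799. Ccl11, the eosinophil attractant eotaxin, lies between Ccl7 and Ccl12, and Ccl1 lies downstream of Ccl8 on the other strand. Each member has 3 exons. The coding stretches below cross the junction of exons 1 and 2 and are shown because they hold the pair of adjacent cysteines that gives the CC family its name. The codons of that pair are in capitals.
Ccl2: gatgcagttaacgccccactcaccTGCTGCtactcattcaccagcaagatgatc
Ccl7: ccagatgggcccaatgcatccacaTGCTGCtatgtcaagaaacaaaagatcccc
Ccl12: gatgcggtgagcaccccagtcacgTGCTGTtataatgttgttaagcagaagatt
Ccl8: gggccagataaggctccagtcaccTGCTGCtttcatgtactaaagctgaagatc
The pair is encoded by codons 34 and 35 of Ccl2, 33 and 34 of Ccl7 and Ccl12, and 32 and 33 of Ccl8. Ccl2 is the longest, with 148 codons against 97, 104 and 97 in Ccl7, Ccl12 and Ccl8. Identity over aligned coding bases ran from 61.0% (Ccl2 with Ccl8) to 70.7% (Ccl8 with Ccl12). In the last 500 bases of the transcripts, where 3' libraries are read, the longest run shared by any 2 members was 9 to 15 bases, so the counts of the 4 genes can be told apart.

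Of the promoters, the RefSeq table (GRCm38.p6) held those of Ccl8 and Ccl12, the 2 members that are closest in sequence. The 250 bases before each start are shown because these neighbours had different time courses, described below.
Ccl12 (chr11:82101595-82101844, plus strand): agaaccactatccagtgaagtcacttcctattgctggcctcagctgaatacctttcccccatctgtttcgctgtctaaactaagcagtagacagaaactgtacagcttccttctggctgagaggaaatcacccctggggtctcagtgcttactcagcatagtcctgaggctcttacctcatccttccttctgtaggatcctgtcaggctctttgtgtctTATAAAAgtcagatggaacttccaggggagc
Ccl8 (chr11:82114935-82115184, plus strand): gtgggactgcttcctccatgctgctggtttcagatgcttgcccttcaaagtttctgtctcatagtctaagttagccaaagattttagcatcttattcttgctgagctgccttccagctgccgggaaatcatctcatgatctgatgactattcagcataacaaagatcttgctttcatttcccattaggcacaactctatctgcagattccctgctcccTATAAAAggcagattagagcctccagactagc
The capitals mark TATAAAA, known as a core promoter element, whose first base lay at -31 in Ccl12 and -32 in Ccl8. That string, read on both strands, occurred in 5.0% of 32851 promoter windows of the same length. No match to the motifs of NF-kB (in 1.4% of windows), the interferon-stimulated response element (3.0%), the STAT site GAS (TTCNNNGAA, 7.0%) or AP-1 (6.7%) was found in either window on either strand, which says only that these letters are not there. The longest run the 2 windows shared was 8 bases.

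Levels are given as CPM, the UMIs of a gene (unique molecular identifiers, 1 per captured transcript) per 1000000 UMIs of all cells of a class in a sample. In such sums, fewer cells that express a gene and less RNA per cell cannot be told apart. Monocytes and macrophages gave 246, 633, 735 and 567 cells on days 1, 3, 5 and 7 and 520 at steady state in the CD45+ libraries, and 223, 1059 and 1209 cells on days 1, 3 and 5 in the CD11b+ pool. In the CD45+ libraries, Ccl2, Ccl7 and Ccl12 were highest on day 1, and Ccl8 was nearly absent on day 1 and highest on day 5. The pool gave the same for Ccl2, Ccl7 and Ccl8, whereas its Ccl12 was highest on day 3.

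Ccl2, the principal CCR2 ligand, stood at 7764, 2771, 1277 and 1376 CPM on days 1, 3, 5 and 7 in the CD45+ libraries, against 1898 at steady state. In the pool it stood at 4088, 1685 and 875 CPM on days 1, 3 and 5. The day 1 samples were the highest of both experiments, and days 5 and 7 of the CD45+ libraries lay below their steady state. Across both experiments Ccl2 fell by 1.61 log2 from day 1 to day 3 (SE 0.17, adjusted p = 0.0377) and by 2.67 log2 from day 1 to day 5 (SE 0.18, adjusted p = 0.00394), in edgeR's quasi-likelihood test with Benjamini-Hochberg adjustment over 10614 genes. The day 3 call was lost under several settings, among them scaling by total UMIs alone (-1.39 log2, adjusted p = 0.0571), and without the day 3 sum of the CD45+ libraries (adjusted p = 0.0957) or of the pool (0.117).

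Ccl7, which binds CCR1 and CCR3 as well as CCR2, stood at 3279, 2100, 1386 and 1605 CPM on days 1, 3, 5 and 7 and at 1360 at steady state. Its pool values were 1298, 1253 and 670 CPM. Day 5 was the lowest day in both experiments, and days 1 and 3 of the pool differed little. Ccl7 fell by 1.36 log2 from day 1 to day 5 (SE 0.19, adjusted p = 0.0154, edgeR) and had a change of -0.58 log2 from day 1 to day 3 that did not pass (adjusted p = 0.214), except without day 1 of the pool (-0.82 log2, adjusted p = 0.00374).

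Ccl12, a rodent CCR2 ligand, stood at 3706, 875, 676 and 416 CPM on days 1, 3, 5 and 7 against 385 at steady state. In the pool it stood at 278, 378 and 221 CPM on days 1, 3 and 5. The day 1 CD45+ library was thus 13.3 times the day 1 pool, while on days 3 and 5 the CD45+ values were 2.32 and 3.05 times those of the pool. From day 1 to day 3 the ratio was 0.236 in the CD45+ libraries (95% counting interval 0.229 to 0.244) and 1.36 in the pool (1.29 to 1.43). From day 1 to day 5 Ccl12 was lower in both, at ratios of 0.182 and 0.795. Neither fitted change passed the test: -1.20 log2 (SE 0.62, adjusted p = 0.365, edgeR) on day 3 and -1.84 log2 (SE 0.62, adjusted p = 0.104) on day 5 against day 1. Without day 1 of the pool both were called (-2.23 and -2.84 log2). The experiments differed in sort, kit version and the neutrophil step, which cannot be told apart.

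Ccl8 gave a single UMI on day 1 of the CD45+ libraries (0.428 CPM) and stood at 34.4, 653 and 266 CPM on days 3, 5 and 7, against 84.3 at steady state. Its pool values were 10.5 (55 UMIs), 86.8 and 214 CPM on days 1, 3 and 5. The order of days 1, 3 and 5 was the same in both experiments. Day 1 of the CD45+ libraries lay below their steady state, and the pool held no steady state sample. The pool's neutrophils held 19.6 CPM of Ccl8 on day 1, more than its monocytes/macrophages, and 10.1 and 9.92 CPM on days 3 and 5. The day 1 value was 22 UMIs in 254 neutrophils, 12 of them in 5 cells, against 55 UMIs in 223 monocytes/macrophages. CPM does not account for RNA per cell, so whether the day 1 level of the pool lay above background cannot be told from it. Day 5 was 20.4 times day 1 in the pool (counting interval 15.6 to 27.1) and 1525 times in the CD45+ libraries, where the single day 1 UMI leaves an interval of 274 to 60260. Ccl8 rose from day 1 to day 5 (fitted change 6.03 log2, SE 1.08, adjusted p = 0.0264, edgeR), a size that rests partly on that UMI and on the prior count of the fit. Its day 3 change of 3.06 log2 (SE 0.97) did not pass (adjusted p = 0.196), and did when any one sum of day 1 or day 5 was left out (2.37 to 7.11 log2, adjusted p of 0.00555 to 0.0385, edgeR).

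**Figure D1:**
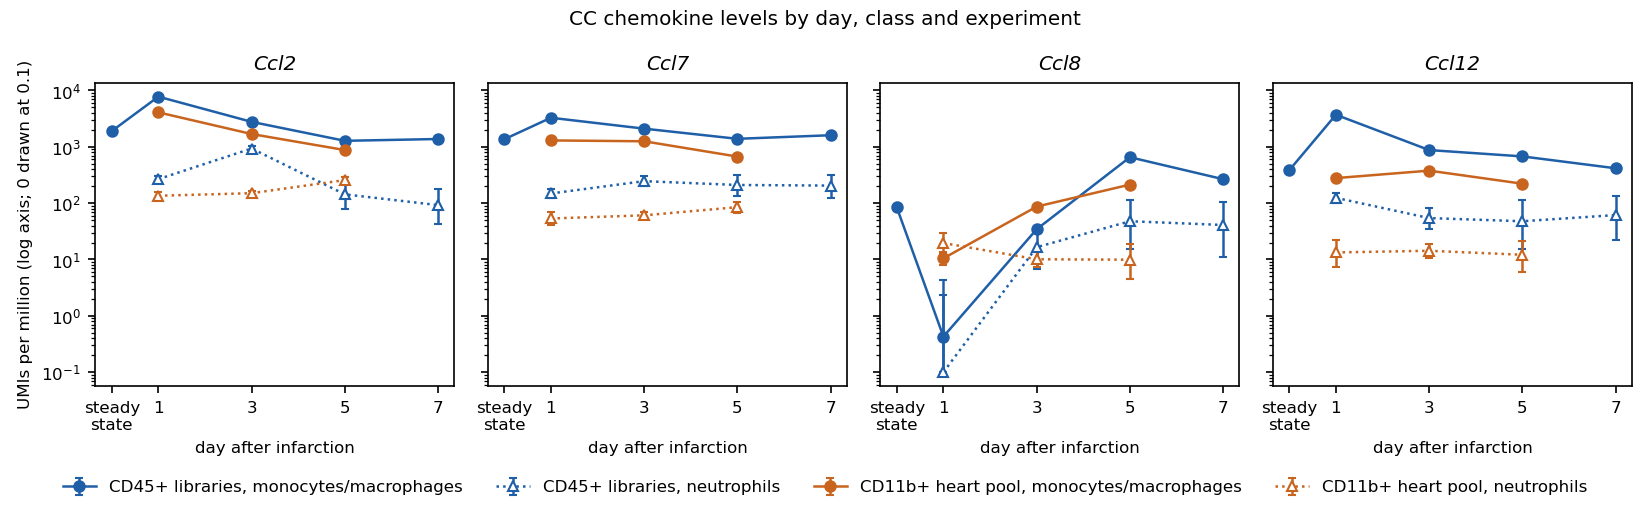
Levels of the 4 chemokines in monocytes/macrophages (filled circles) and neutrophils (open triangles) (CPM, log axis with 0 drawn at 0.1, 1 panel a gene) at steady state and by day after infarction, with 1 point per class and sample of either experiment and bars for 95% exact counting intervals. Ccl2 is highest on day 1 in both experiments, Ccl8 climbs to 653 and 214 on day 5, and Ccl12 on day 1 is 3706 in one experiment and 278 in the other.

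Counting the members against all genes, 1 of 4 (Ccl2) was called between days 1 and 3, where 0.904% of the genes tested were, and 3 of 4 (Ccl2, Ccl7, Ccl8) between days 1 and 5, where 11% were (2 of the 3 were lower, where 6.17% of genes were, and Ccl8 was higher, where 4.8% were). None of the 4 was called between days 3 and 5 in edgeR, where 0.0188% of genes were, 2 in number, with 842 genes at an unadjusted p under 0.05 and 117 genes called by DESeq2. The day 5 against day 3 changes were -1.06 log2 for Ccl2, -0.79 for Ccl7, 2.97 for Ccl8 and -0.65 for Ccl12, with adjusted p of 0.233, 0.357, 0.462 and 0.829 (edgeR). All 4 were called without day 1 of the CD45+ libraries (adjusted p of 0.0002 to 0.0103, edgeR) and without day 1 of the pool (0.000414 to 0.0133), and Ccl8 also without day 5 of the pool (0.0235). Without the experiment as a term no gene was called in any of these contrasts, and 515, 1237 and 155 genes had an unadjusted p under 0.05 between days 1 and 3, 1 and 5, and 3 and 5. Only 2 residual degrees of freedom stood behind the main fits, and the spread was estimated with the help of the other genes. With the experiment as a term, the p-values measure how far the day changes differ between 2 pooled experiments. They do not cover the spread between mice.

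Steady state and day 7 had 1 library each and were not tested. On day 1 Ccl2 was 4.09 times its steady state level, Ccl7 2.41 times and Ccl12 9.63 times, while Ccl8 stood at 0.00508 times (counting interval 0.000128 to 0.0285). By day 7 Ccl12 was 1.08 times steady state, Ccl7 1.18 times and Ccl2 0.725 times, and Ccl8 was still 3.16 times steady state. From day 5 to day 7 Ccl8 went to 0.407 times and Ccl12 to 0.615 times, whereas Ccl2 and Ccl7 went to 1.08 and 1.16 times. Genes that tissue digestion is known to induce in cells (Fos, Jun, Hspa1a and 9 more) summed to 17290 CPM at steady state and to 4171 to 5860 in the other CD45+ libraries, all 12 being detected in each; the part of this in the steady state levels was not tested. Neutrophil markers, all 15 detected, summed to 19734 CPM in the monocytes/macrophages of the day 1 CD45+ library, to 228 at steady state, to 753 to 2390 on days 3 to 7, and to 1169 to 3091 in the pool, where 13 or 14 of the 15 were detected. Their part in the day 1 levels was not tested, and the neutrophils of that library held 267 CPM of Ccl2. In an alternative, each cell was placed in the class with the largest share of its markers detected. Monocytes/macrophages of the day 1 CD45+ library then numbered 70 in place of 246. On days 3, 5 and 7 they numbered 596, 643 and 590 in place of 633, 735 and 567, and at steady state 408 in place of 520. The class of many day 1 cells, and of part of the steady state cells, thus depended on how classes were named.

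The share of cells with a UMI was compared after drawing 2000 UMIs from every cell. Ccl2 was seen in 90.0% of monocytes/macrophages on day 1 of the CD45+ libraries (exact 95% interval 85.4 to 93.5, 215 of 239 cells) and in 68.4%, 54.7% and 50.6% on days 3, 5 and 7, with 63.1% at steady state. In the pool the Ccl2 shares were 75.2%, 65.7% and 48.8%. From day 1 to day 5 the share of cells thus went down as the summed level did in both experiments. From day 5 to day 7 the share was lower, while the summed level went from 1277 to 1376 CPM. Ccl12 was seen in 57.7%, 31.8%, 33.9% and 27.2% of CD45+ cells on days 1 to 7, in 23.2% at steady state, and in 21.2%, 25.1% and 21.0% in the pool. Ccl7 ranged only from 36.6% to 61.5% over the 8 samples.

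Ccl8 had the lowest shares at this depth, which count cells with a UMI and do not bound the cells that express the gene. It was seen in 0 of 239 thinned cells on day 1 of the CD45+ libraries (exact upper limit 1.53% for cells with a UMI), and in 2.37%, 27.9% and 16.4% on days 3, 5 and 7, with 7.74% at steady state. The pool gave 1.35%, 5.82% and 15.7% on days 1, 3 and 5. Without thinning every share was higher, reaching 97.6% for Ccl2 on day 1 and 51.8% for Ccl8 on day 5 of the CD45+ libraries. Lymphocytes were taken to give the background of such shares, and the source of their UMIs, such as free RNA, was not tested. Day 7 B cells had a median of 2756 UMIs against 10643 in the monocytes/macrophages. They held Ccl2 in 23.1% of cells, Ccl7 in 35.3%, Ccl8 in 8.41% and Ccl12 in 9.45%. Ccl7 in steady state NK cells, at 55.6% of 27 cells (median 4450 UMIs), was as frequent as in the monocytes/macrophages (57.6%, median 7349 UMIs). With so few NK cells, of lower depth, this measure cannot show whether the steady state share of Ccl7 lies above background. The summed levels did differ, at 314 CPM in those NK cells against 1360.

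Within the class the UMIs were unevenly held. In thinned cells the 10% of cells with the most UMIs of a gene held 34.1% of Ccl2 UMIs on day 1 of the CD45+ libraries and 45.0% to 62.0% in the other samples. For Ccl12 that share was 64.2% to 79.9%, and for Ccl7 51.8% to 68.1%. For Ccl8 it was 79.5% on day 5 of the CD45+ libraries and higher in each other sample where it could be computed.

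Cells with a UMI of one of Ccl2, Ccl7 and Ccl12 more often had a UMI of another. Ccl7 was seen in a larger share of cells with Ccl2 than of cells without it in 8 of 8 samples, by 16.0 to 45.0 percentage points. On day 3 of the pool, for example, Ccl7 was in 65.6% of the 689 cells with Ccl2 and in 20.6% of the others. Ccl12 was likewise more frequent beside Ccl2 in 8 of 8 samples (by 7.90 to 31.8 points) and beside Ccl7 in 8 of 8 (8.59 to 29.9 points). Beside Ccl2 the share of Ccl8 was higher in 7 of 8 samples by at most 10.4 points, and beside Ccl7 in 6 of 8 by at most 14.6 points. Beside Ccl8, Ccl12 was more frequent in 5 of 5 samples (by 6.21 to 16.9 points). Since Ccl8 was seen in few cells at this depth, its share could not differ by many points in most samples: on day 3 of the CD45+ libraries all 15 cells with Ccl8 also had Ccl2. Cells drawn to the same number of UMIs still share their library and its free RNA, and these shares are a description with no test.

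**Figure D2:**
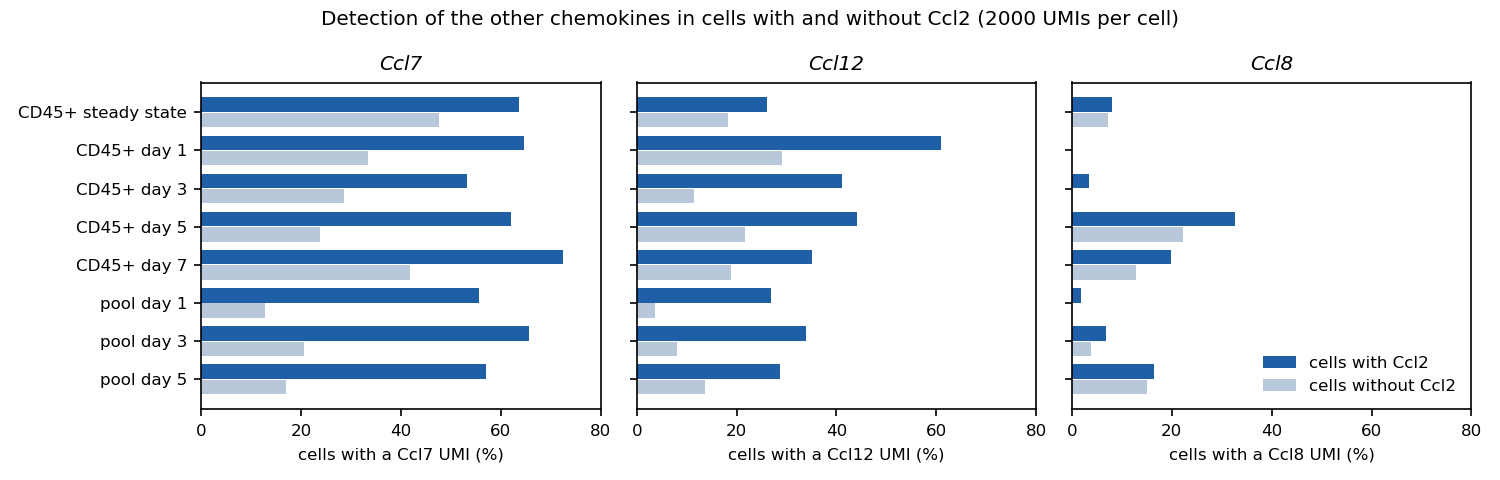
Percent of monocytes/macrophages with a UMI of Ccl7, Ccl12 or Ccl8 (1 panel each) among cells with and without a UMI of Ccl2, for each heart sample, with 2000 UMIs drawn from every cell. Ccl7 and Ccl12 are more frequent beside Ccl2 in all 8 samples, and Ccl8 differs by at most 10.4 percentage points.

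Monocytes/macrophages were split into clusters made without any chemokine gene, and clusters were named by marker lists, with some leading genes in parentheses here. Named states were Ly6c2+ monocytes (Ly6c2, Plac8, Chil3), Arg1-high cells (Arg1, Slpi, Saa3), interferon cells (Isg15, Rsad2, Ifit3), Trem2+ Gpnmb+ macrophages (Spp1, Fabp5, Gpnmb), proliferating cells (Mki67, Top2a) and resident-type macrophages (Lyve1, Folr2, Cbr2). Day 1 of the CD45+ libraries was almost wholly 1 Arg1-high cluster (211 cells) and 1 interferon cluster (32 cells), so day and state cannot be told apart there. Lcn2 and S100a8, neutrophil genes, and Saa3 led that Arg1-high cluster, and Mt2 led the interferon one. Levels of clusters with at least 20 cells in a sample follow.

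Ccl12 had the clearest preference, for interferon cells, defined by genes that type I interferon induces. In each of the 5 samples with an interferon cluster, that cluster had the highest Ccl12 of all clusters. It held 5949, 3176 and 1688 CPM on days 1, 3 and 5 of the CD45+ libraries, and 1433 and 1012 on days 3 and 5 of the pool. In the 4 samples that held both, interferon cells averaged 1827 CPM of Ccl12 against 656 in Trem2+ Gpnmb+ macrophages and 201 in Ly6c2+ monocytes, and they were higher in 4 of 4 in each comparison. In the 5 samples shared with Arg1-high cells the means were 2652 and 771 CPM, higher in 5 of 5. Interferon cells were few (31 to 40 a sample), and 4 or 5 samples do not reach the number set for a test.

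Ccl7 was also highest in the interferon cluster in 4 of those 5 samples, with 6072, 5238 and 2088 CPM on days 1, 3 and 5 of the CD45+ libraries. In the pool it stood at 1723 on day 3, below the 1891 of Arg1-high cells, and at 1194 on day 5, where it was the highest. Ly6c2+ monocytes held 391 to 1279 CPM of Ccl7 over 6 samples and were the lowest cluster in 1 of them, while Arg1-high cells were the lowest in 3 of 7. In the 5 samples they shared with Trem2+ Gpnmb+ macrophages, the monocytes were lower in 4.

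Ccl2 had no state that led throughout. Arg1-high cells of day 1 held 7932 CPM in the CD45+ libraries, and 7238 and 3019 in the pool's 2 Arg1-high clusters. Interferon cells held 6335 CPM on day 1 and 5285 on day 3 of the CD45+ libraries, and were the highest cluster in 3 of 5 samples. The course with time differed between states. In Ly6c2+ monocytes Ccl2 went from 2546 to 1277 to 888 CPM on days 3, 5 and 7 of the CD45+ libraries, and from 3804 to 1770 to 1359 on days 1, 3 and 5 of the pool. Trem2+ Gpnmb+ macrophages, led by lipid-handling and lysosomal genes, went from 3371 on day 3 to 754 on day 7 in the larger CD45+ cluster, and from 1485 to 871 on days 3 and 5 in the larger pool cluster. Arg1-high cells of the CD45+ libraries went the other way after day 1, from 458 to 805 to 2062 CPM on days 3, 5 and 7, while those of the pool went from 1750 to 912 on days 3 and 5.

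Of Ccl8, Ly6c2+ monocytes held 3.16 to 53.8 CPM over 6 samples, the lowest of all clusters in 4 of them. Trem2+ Gpnmb+ macrophages held 93.4 to 791 CPM over 9 sums, and were higher than Ly6c2+ monocytes in 5 of 5 shared samples, with means of 314 and 20.1 CPM. On day 5 of the pool the highest was an unnamed cluster led by Selenop, Apoe and C1q genes (381 CPM, 264 cells), and an unnamed CD45+ cluster led by Ms4a7 and Gdf15 held 776 CPM that day. Interferon cells went from 8.25 CPM on day 3 to 1221 on day 5 in the CD45+ libraries and from 67.1 to 380 in the pool, so Ccl8 went up within that state in both experiments. In the larger Trem2+ Gpnmb+ cluster Ccl8 went from 93.4 to 791 CPM in the CD45+ libraries, but from 187 to 155 in the pool. In Ly6c2+ monocytes of the pool it stood at 4.83, 8.07 and 6.36 CPM on days 1, 3 and 5.

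Resident-type macrophages, the long-lived cells of the healthy heart, held 1972 CPM of Ccl2, 1534 of Ccl7, 111 of Ccl8 and 229 of Ccl12 at steady state (239 cells). The 42 cells of this type on day 7 held 5669, 5307, 719 and 981 CPM, the highest of the clusters of that library for each of the 4. The other steady state cluster (261 cells), led by Hspa1a, Cd83 and MHC class II genes, held 1773, 1192, 44.0 and 367 CPM.

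**Figure D3:**
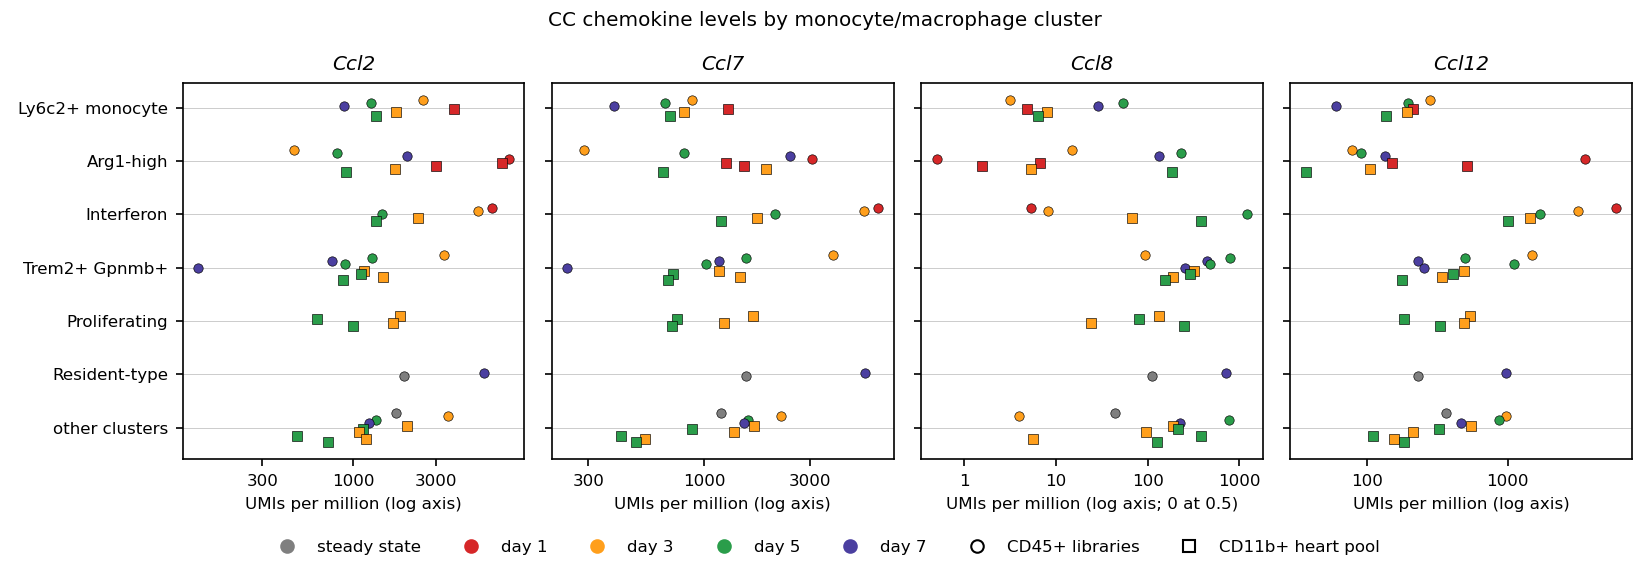
Levels of the 4 chemokines (CPM, log axis) in the named monocyte/macrophage clusters and in the other clusters, 1 point per cluster and sample with at least 20 cells, coloured by day and shaped by experiment, with 0 drawn at 0.5. Ccl12 is highest in interferon cells in 5 of 5 samples, Ccl8 is lowest in Ly6c2+ monocytes in 4 of 6 samples, and Ccl2 in Arg1-high cells runs from 458 to 7932.

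One pair of states, Arg1-high cells and Ly6c2+ monocytes, shared the 6 samples needed for an exact paired permutation test (two-sided, smallest possible p 0.0312). Differences on the log2(CPM + 5) scale were -0.29 for Ccl2 (SD 1.12, higher in 3 of 6), 0.42 for Ccl7 (SD 1.41, 4 of 6), 1.48 for Ccl8 (SD 1.63, 4 of 6) and -0.59 for Ccl12 (SD 1.24, 2 of 6). None passed: the exact p were 0.594, 0.562, 0.125 and 0.344 before adjustment, and the lowest adjusted over the 4 was 0.5.

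Over the 44 sums of a cluster in a sample (r of log2(CPM + 5) centred within experiment, a description whose points share libraries), the members formed a graded group. Ccl2 and Ccl7 had r = 0.82, Ccl7 and Ccl12 0.72, and Ccl2 and Ccl12 0.55. Ccl8 stood apart, with r of -0.48 with Ccl2, -0.12 with Ccl7 and -0.01 with its neighbour Ccl12. Among 2429 ranked genes those most like Ccl2 were Ccl7, Hspa5 (0.72), Eps8 (0.69), Snx2 (0.65) and H3f3b (0.65). Those most like Ccl7 were Ccl2, Ccl12, Snx2 (0.70), Sh3bgrl (0.61) and Ccl4 (0.59). Ccl12 had Ccl7, Max (0.68), Lpxn (0.68), Cndp2 (0.64) and the interferon-induced gene Ifit1 (0.63).

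The genes most like Ccl8 were Igf1 (0.86), Gna12 (0.83), Cd63 (0.82), Pld3 (0.82) and Tspan4 (0.82). Igf1, which encodes insulin-like growth factor and is made by macrophages, stood at 3.85, 16.1, 165 and 216 CPM on days 1, 3, 5 and 7 of the CD45+ libraries, 191 at steady state, and 6.86, 66.2 and 199 CPM in the pool. Like Ccl8 it went up from day 1 to 3 to 5 in both experiments, and unlike Ccl8 it was higher on day 7 and at steady state than on day 5.

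**Figure D4:**
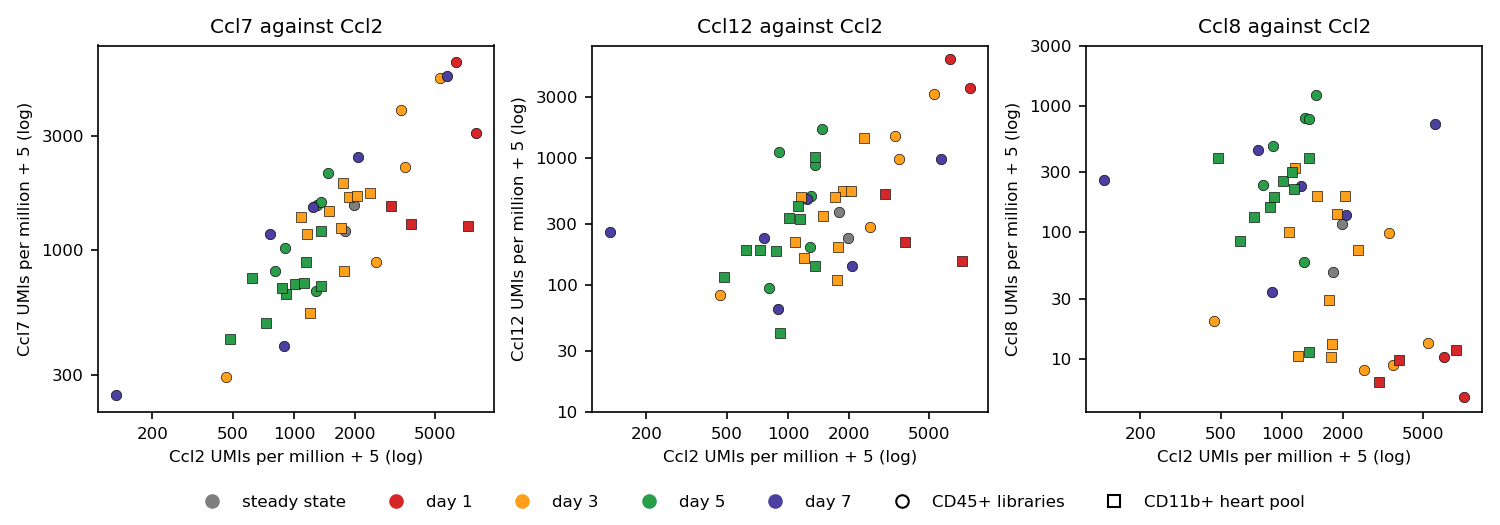
Levels of Ccl7, Ccl12 and Ccl8 against Ccl2, 1 point for each monocyte/macrophage cluster in a sample (CPM + 5, log axes), coloured by day and shaped by experiment. Ccl7 and Ccl2 lie along a diagonal (r = 0.82 over 44 sums), while the day 1 points of Ccl8 lie at high Ccl2 and low Ccl8.

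Surface proteins were counted with antibodies in the CD11b+ pool, and monocytes/macrophages were split at each day's median antibody count. For most antibodies the high part also held more RNA per cell (on day 3, medians of 40849 against 20796 UMIs for CX3CR1), and a split on Ly6G, a neutrophil protein, moved the chemokines too, with Ccl8 ratios of 1.60, 2.41 and 1.13. Ly6C was an exception on days 3 and 5, where the high part was not deeper (24685 against 34900 UMIs on day 3). Cells high in Ly6C, the protein of inflammatory monocytes, held more Ccl2 than cells low in it, at ratios of 1.84, 1.08 and 1.55 on days 1, 3 and 5. Ccl8 went the other way, at 0.29, 0.67 and 0.73, and between the highest and lowest quartiles of Ly6C at 0.20, 0.08 and 0.55.

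CX3CR1, the fractalkine receptor, marked cells with more Ccl8, at high to low ratios of 2.74, 6.84 and 1.93 on days 1, 3 and 5. For Ccl2 the CX3CR1 ratios were 1.44, 0.91 and 0.82. CD64, the Fc receptor found on macrophages, went with more Ccl7 (1.96, 1.84 and 1.31) and Ccl12 (3.31, 1.73 and 1.29), and with Ccl8 at 0.47, 3.96 and 1.25. A split on CCR2, the receptor of 3 of the members, left Ccl2 at 1.18, 1.02 and 1.08. These are values of 3 days of 1 pool, with no test. The day 1 ratios of Ccl8 rest on 55 UMIs, a level by CPM no higher than in neutrophils, so they cannot show which cells express it.

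**Figure D5:**
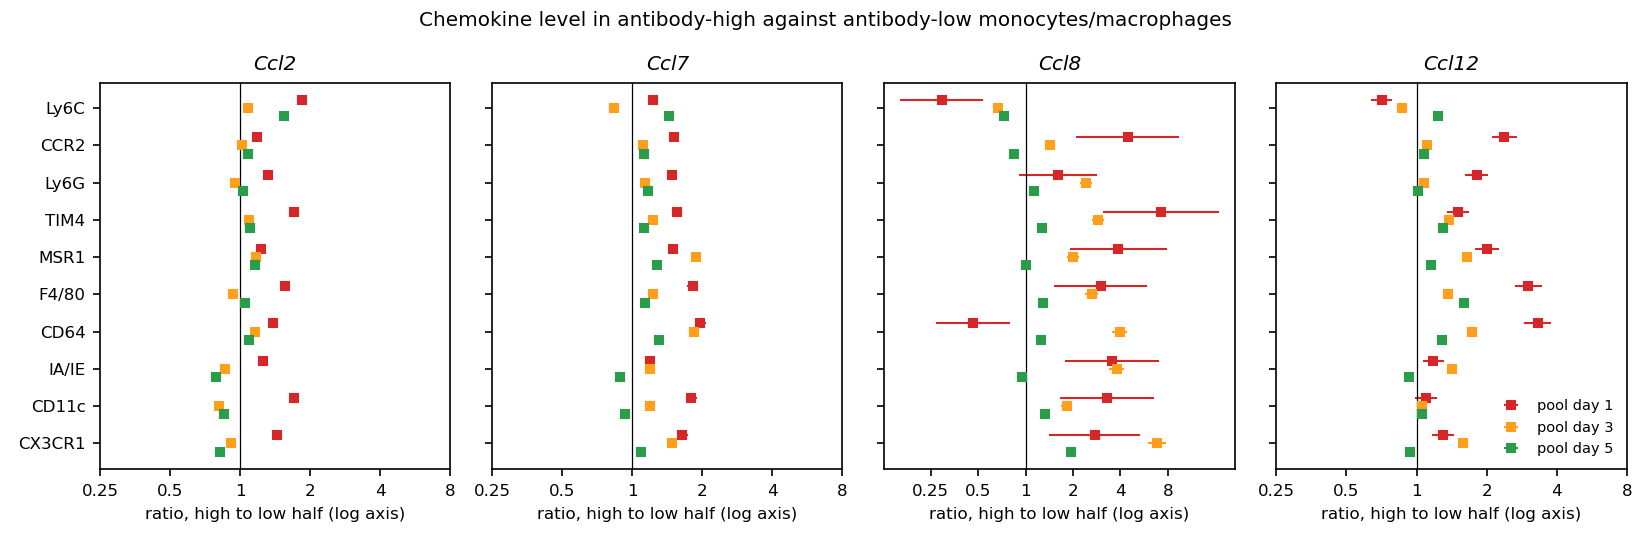
Ratio of each chemokine's level (CPM) in cells above the day's median antibody count to that in cells at or below it, by antibody and day, on a log axis; bars are approximate 95% counting intervals and 1 means no difference. Ccl8 lies above 1 for CX3CR1 and below 1 for Ly6C on all 3 days, though its day 1 level by CPM was no higher than in neutrophils.

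Neutrophils and lymphocytes held less Ccl2, Ccl7 and Ccl12 than monocytes/macrophages of the same heart sample in each sum of at least 20 cells. Among neutrophils of the CD45+ libraries Ccl2 stood at 267, 933, 143 and 92.2 CPM on days 1, 3, 5 and 7, and in the pool at 135, 150 and 257. The day 3 value rested on few cells, since 5 of 135 neutrophils held 56.5% of the UMIs. Neutrophil Ccl7 was 148 to 246 CPM in the CD45+ libraries and 53.4 to 84.8 in the pool, and their Ccl12 was 47.8 to 124 and 12.1 to 14.3. Lymphocytes were taken as background, though free RNA itself was not measured. Day 7 B cells (963 cells) held 125 CPM of Ccl2, 203 of Ccl7, 42.8 of Ccl8 and 48.0 of Ccl12. The day 7 T cells (95 cells) held 76.8, 158, 38.4 and 40.8 CPM. B cells of the day 5 library held 86.8 CPM of Ccl2, 130 of Ccl7, 76.0 of Ccl8 and 32.6 of Ccl12, so lymphocyte values differed between libraries. Neutrophils of days 5 and 7 of the CD45+ libraries lay close to the day 7 lymphocyte values for all 4 members. The day 5 neutrophils of the pool did not, with 257 CPM of Ccl2 and 9.92 of Ccl8.

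Dendritic cells held 88.3 to 402 CPM of Ccl2 and 0 to 51.8 of Ccl8. An unnamed CD45+ cluster of mixed and stromal markers, outside every class, held 913 to 1924 CPM of Ccl2 over 4 samples, with 48.8% to 82.8% of the UMIs in 5 cells each time. In the pool, an unnamed cluster led by MHC class II genes held 955 CPM of Ccl2 on day 3 (105 cells) and 662 on day 5 (194 cells), closer to the 1685 and 875 of monocytes/macrophages, and with it added to that class the day 3 change of Ccl2 was no longer called (-1.60 log2, adjusted p = 0.0506, edgeR). Of the neighbours in the locus, Ccl11 was at most 0.527 CPM in the monocytes/macrophages of the heart samples and reached 112 CPM in that mixed cluster at steady state. Neither Ccl11 nor Ccl1 passed the count filter in monocytes/macrophages.

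Among the receptors, Ccr1, which binds Ccl7, was lower on day 5 than on day 1 in monocytes/macrophages (-1.84 log2, SE 0.19, adjusted p = 0.00685, edgeR). Ccr2 itself had changes of 0.15, -0.41 and -0.57 log2 for day 3 against 1, 5 against 1 and 5 against 3, with adjusted p of 0.883, 0.576 and 0.803 (edgeR). Among 9 inducing cytokines and receptors tested, 2 fell by day 3 and 3 by day 5, where 0.669% and 6.17% of all genes did. These were Il1b (-1.34 and -2.13 log2) and Il6 (-3.46 and -5.02 log2) on both days and Tnf by day 5 (-1.04 log2), cytokines that are known to induce Ccl2. Il6 stood at 780, 43.4, 22.6 and 30.1 CPM on days 1, 3, 5 and 7 of the CD45+ libraries, at 55.9 at steady state, and at 174, 35.1 and 9.09 in the pool. On the same CD45+ days Il1b stood at 8355, 4376, 2377 and 4100 CPM and Tnf at 257, 151, 137 and 264. At steady state Il1b was 4736 and Tnf 265, so both were higher on day 7 and at steady state than on day 5.

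The other lists had 1 or 2 genes called on day 5, which are few to set beside the 6.17% of all genes that were lower and the 4.8% that were higher than on day 1. Of 14 transcription factors, none was called on day 3 and 2 were lower on day 5, Nfkb1 (-1.04 log2), a subunit of NF-kB, and Cebpb (-0.72 log2). Of 8 genes of receptor coupling, 1 was higher on day 5, Arrb2 (0.99 log2), a beta-arrestin that takes receptors off the surface. Of 8 genes of mRNA decay and feedback, 1 was lower on day 5, the NF-kB inhibitor Nfkbia (-0.64 log2). Of the 12 digestion-induced genes, Ier3 was lower on days 3 and 5 (-1.18 and -1.91 log2) and Atf3 higher on day 5 (1.08 log2). The median day 5 against day 1 change was -0.34 log2 in the cytokines, -0.15 in the transcription factors and -0.57 in the decay genes, beside -0.01 over all 10614 genes. No gene of these 5 lists was called between days 3 and 5.

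In the pool of blood and heart cells the hashtags have no known condition, so values are given for each. Monocytes/macrophages of hashtags 1 to 5 held 53.0, 6.34, 6.19, 6.63 and 5.25 CPM of Ccl2, and those of hashtags 6 and 7 held 403 and 702. For Ccl7 hashtags 1 to 5 lay between 0.334 and 0.921 CPM and hashtags 6 and 7 at 148 and 231, and for Ccl12 at most 0.460 in the first 5 and 22.1 and 94.1 in the last 2. Ccl8 had 0 UMIs in the 3314 monocytes/macrophages of this pool, which allows up to 0.0729 CPM. The Ccl2 of hashtag 1 was spread over 193 of 704 cells, with at most 13 UMIs in a cell, whereas 5 cells of hashtag 7 held 1229 of its 2870 UMIs. Heart tissue of this pool was dissociated mechanically, and the digestion-induced genes summed to 822 to 1983 CPM in its monocytes/macrophages.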

How the data were processed

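The authors deposited raw UMI counts of genes by barcode (10x Genomics 3' libraries, version 2 kit for CD45+ cells and version 3 for the CD11b+ heart pool, per the labels). The authors used Cell Ranger with mm10/GRCm38, per the submitters' processing notes; version 3.0.2 is named for the 2 pools per the file headers. The pools also hold deposited antibody and hashtag counts.

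A barcode was used if it had 200 or more genes and no more than 10% of its UMIs on mitochondrial genes. In the pools, barcodes with several hashtags (368 and 1484) or none (458 and 166) were left out. Scrublet marked 2 to 6 barcodes per CD45+ library, which were removed. Cells used numbered 522 to 1793 per CD45+ library (medians of 3594 to 9464 UMIs), 495, 2159 and 1628 for days 1, 3 and 5 of the heart pool, and 718 to 1848 per hashtag of the other. The 2 pools shared 28 barcodes and other pairs of libraries at most 2.

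Cells were clustered in scanpy 1.11.5 (2000 variable genes, 30 components, 15 neighbours, Leiden resolution 0.5 for classes and 0.6 for states), leaving out all chemokine genes at both levels. A cluster was named where at least 3 markers of a list were in at least 20% of its cells at 1.5 times the level elsewhere and its 10 leading genes did not favour another list; these naming details, the motif TATAAAA and 1 alternative were set after seeing the data. UMIs were summed per class, day and experiment. The sums of days 1, 3 and 5 were fitted in edgeR 4.0.16 (R 4.3.3; filterByExpr, TMM, quasi-likelihood F test, two-sided, day and experiment as terms, adjusted p under 0.05). DESeq2 1.42.0 was an alternative. The fit was tested on simulated data with no difference between experiments and a smaller spread than that of these data. That does not show how reliable the calls are here. SE is the change over the root of F. Confidence intervals are 95% exact Poisson or binomial (Clopper-Pearson) and cover counting error only, as does the limit of 3 counts for a count of 0.

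Day and experiment form the pairing: each experiment gives each day once, so the experiment is the block, and samples of an experiment share kit and sort. The 4 members, the gene lists and the tests were chosen with earlier results of these data known. Named genes were the members, the fixed pathway genes past the threshold (at most 4 each way, mean at least 20 CPM) with Ccr2, and the 5 genes most like each member (mean at least 50 CPM). Marker lists of fibroblasts, endothelial cells and cardiomyocytes summed to 126 to 374, 101 to 403 and 3.26 to 243 CPM in the monocytes/macrophages of the heart samples. A summary over the receptor list is not reported here.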

Additional observations from a re-analysis of the deposited data

Results flagged for a closer look

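Ccl12 moved in opposite directions from day 1 to day 3 in the 2 experiments: the log2 ratio of its level in monocytes/macrophages was -2.08 in the CD45+ libraries and 0.44 in the CD11b+ pool. The difference between the experiments was not tested, since each has 1 sample a day.

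In the blood and heart pool, which entered no comparison, the monocytes/macrophages of hashtag 7 held 702 CPM of Ccl2, 231 of Ccl7 and 94.1 of Ccl12, the highest of the 7 hashtags for each. The condition of that hashtag is not known here.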

How the results depend on the processing

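Of 192 values of the 4 members over the 3 day contrasts and 16 alternatives, 156 kept direction and side of the threshold, 8 lost their call, 26 gained one and 2 changed sign. Ccl2, Ccl7 and Ccl8 were called between days 1 and 5 in 15 of 16 alternatives each. The exception was the fit with no replicate block (day only), where values were -2.76, -1.45 and 6.21 log2 (adjusted p 0.257, 0.543 and 0.187, edgeR) and Ccl2 on day 3 was -1.66 (0.999). Ccl2 on day 3 was also lost with total UMIs only (-1.39) and with an unnamed pool cluster added (-1.60, adjusted p 0.0506, chosen after seeing the data). Calls gained on day 3 against day 1, other than by leaving out a sum, were Ccl8 with no filter on low counts (3.15) and with only the 2 days compared (3.46). On day 5 against day 1, Ccl12 was called by DESeq2 (-1.87) and with no filter (-1.75). On day 5 against day 3, again with every sum kept, Ccl2 was called by DESeq2 (-1.04) and with no filter (-1.06), and with only the 2 days compared all 4 were called (Ccl2 -1.07, Ccl7 -0.79, Ccl8 2.64, Ccl12 -0.61).

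Leaving out each sum in turn gave, for day 3 against day 1, Ccl2 -1.78 to -1.36, Ccl7 -0.82 to -0.26, Ccl8 2.15 to 7.11 and Ccl12 -2.23 to 0.21 log2. For day 5 against day 1 the ranges were -2.84 to -2.42, -1.60 to -1.03, 4.52 to 9.74 and -2.84 to -0.38, and for day 5 against day 3 -1.24 to -0.83, -1.01 to -0.56, 1.06 to 4.45 and -1.22 to 0.23. Ccl12 turned to 0.21 without day 1 of the CD45+ libraries and to 0.23 without day 3 of the pool, and without day 1 of the pool it was called on day 3 (-2.23) and day 5 (-2.84). Leaving out a sum called Ccl8 on day 3 against day 1 in 4 of 6 fits and Ccl7 in 1 of 6 (without pool day 1). It called all 4 members on day 5 against day 3 without CD45+ day 1 and without pool day 1, and Ccl8 also without pool day 5. A lone sample is assumed to vary like the others. For Arg1-high against Ly6c2+ cells the ranges were -0.59 to 0.074 (Ccl2, above 0 without CD45+ day 3), -0.025 to 0.82 (Ccl7, below 0 without CD45+ day 7), 0.96 to 1.84 (Ccl8) and -0.93 to -0.35 (Ccl12), none past the threshold; a finer clustering and a minimum of 50 cells left fewer than 6 shared samples and no value.

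Genes called in all numbered 0 to 2400, 0 to 3330 and 0 to 1382 over the alternatives, against 96, 1165 and 2. Of 64 shares of cells with a UMI, 59 moved: by up to 16.9 points down with 1000 UMIs a cell and by 0.41 to 38.7 points up without thinning. Comparing the outer quartiles, in place of a split at the median, moved 95 of 116 antibody ratios. The causes were not tested. Depth limits Ccl8 most, with 1 and 55 UMIs on day 1.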
